A study of Mus musculus with 12 samples.

Results

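Purified myotubes lacking both Kdm5a and Rb1 were compared with the unsorted culture of the same genotype, as n = 2 libraries on each side, named here purified 1, purified 2, mixed 1 and mixed 2. All 17214 genes with a mean of at least 10 normalised reads over these 4 libraries were tested, of 36229 in the deposited table. The cells were C57BL/6 mouse embryonic fibroblasts that had been given an adenovirus carrying MyoD for 24 h under 2% horse serum with insulin at 10 µg/ml, and were cultured for 72 h more. The double knockout (DKO) cells carried the genotype Kdm5a-/-;Rb1-/-, and wild-type (WT) cells, also n = 2 mixed and n = 2 purified, served as the reference for a difference between genotypes. For purification, cultures were trypsinised, myotubes were separated from smaller cells by their settling under gravity, and the fraction recovered for 24 h in medium conditioned for 48 h by other embryonic fibroblasts. The 2 kinds of library differed in more than the cells. Mixed libraries started from 1.7 µg of total RNA, had ribosomal RNA removed with RiboMinus and were read for 40 bases on a HiSeq, whereas purified libraries were made from 1.5 µg of RNA after 2 rounds of oligo(dT) selection and 15 PCR cycles and were read for 36 bases on a Genome Analyzer II. Purification, the trypsin step, the recovery, RNA selection and read length changed together and cannot be told apart. Nothing in the labels tells whether the 2 libraries of a group are separate cultures, so p-values measure only the spread between these libraries. In bulk RNA, fewer cells of a type and less RNA per cell cannot be told apart either.

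MyoD is a transcription factor that binds E-box sequences and starts the skeletal muscle programme: muscle regulators such as myogenin are switched on, cells leave the cell cycle and fuse, and the resulting multinucleate myotubes build sarcomeres. Rb1 encodes the retinoblastoma protein, which restrains the E2F factors that drive genes of DNA replication, and Kdm5a encodes a demethylase of histone H3 lysine 4 that can bind it. An unsorted culture of this kind holds myotubes beside mononucleate cells that did not fuse. Oligo(dT) selection keeps messengers with a poly(A) tail, while depletion of ribosomal RNA also keeps RNAs without a tail, among them most replication-dependent histone messengers and small nuclear and nucleolar RNAs. The 194 tested genes of such classes were therefore described apart from the other 17020.

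The libraries held 31158818 and 41309134 reads (mixed) and 8688604 and 15570731 reads (purified). Squared differences between replicates over genes were 6.75 times counting error for the mixed pair and 78.7 times for the purified pair, against 3.98 to 6.85 times for the other groups of the series. The purified DKO libraries therefore stand apart from one another, with a median absolute log2 difference of 0.496 between them against 0.119 for the mixed pair, and each is shown singly throughout. Marker lists behaved unevenly. The summed level of 13 myotube markers was 175002 and 189222 normalised reads in the mixed libraries and 246272 and 258374 in the purified ones, so muscle markers were abundant on both sides. These sums join opposite changes. Ttn gave 87456 and 101809 of the mixed sums and 14784 and 12650 of the purified ones, and Acta1 gave 3176 and 3536 mixed and 51109 and 75326 purified. Summed levels of 12 fibroblast markers were 15050 and 15986 mixed and 25436 and 33690 purified, a rise carried by fibronectin (Fn1). The collagen genes Col1a1 and Col1a2 were also higher in both purified libraries, Col1a2 at 2928 and 3096 mixed and 7046 and 5049 purified. Col3a1, Postn, Pdgfra, Pdgfrb, Thy1, Twist1, Lum and Dcn were lower in both, and S100a4 was higher in purified 1 and lower in purified 2. Lum and Dcn, both matrix proteoglycan genes of fibroblasts, were at 53.1 and 48.2 and at 54.2 and 51.0 mixed against 3.25 and 0 and 4.88 and 2.09 purified. Adipocyte, blood and epithelial markers each summed to no more than 53.7 in any of the 4 libraries, with the haemoglobin gene Hba-a1 at 0 in all. Endothelial markers summed to 260.2 to 358, neural markers to 256 to 382, and smooth muscle markers to 17941 to 28893.

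The targeted genes retained reads in every DKO library. Kdm5a (ENSMUSG00000030180) stood at 1319 and 1370 normalised reads mixed and 787 and 614 purified, against 1637 and 1871 and 3033 and 2775 in WT. Rb1 (ENSMUSG00000022105) stood at 5309 and 5662 mixed and 2356 and 2104 purified, against 5616 and 5650 and 3500 and 3218 in WT. The labels do not state which exons the alleles lack, the counts cover whole genes, and both genes share exons with neighbours in the annotation (Ccdc77 for Kdm5a, Rcbtb2 and Lpar6 for Rb1), so these values do not check the genotype.

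With limma on log2(value + 1) and a threshold of 0.05 on the Benjamini-Hochberg adjusted p, 6955 of 17214 genes passed (40.4%). Of all genes, 3280 rose (19.1%) and 3675 fell (21.3%) with purification, and the counts of members below are to be read against these shares. The median change over all genes was -0.04 on the log2 scale. Among the polyadenylated genes 3277 rose (19.3%) and 3531 fell (20.7%), while among the genes held apart 3 rose (1.55%) and 144 fell (74.2%). The spread between the purified libraries set the count: without mixed 1 or mixed 2 only 29 or 31 genes passed, and without purified 1 or purified 2 the count was 13899 or 12914. Read singly against the mean of the mixed libraries, purified 1 was at least 2-fold higher in 2857 genes (16.6%) and at least 2-fold lower in 3639 (21.1%), and purified 2 in 4083 (23.7%) and 4667 (27.1%). Both were at least 2-fold higher in 2285 genes (13.3%) and at least 2-fold lower in 2968 (17.2%), and they went opposite ways by that much in 48. The plot of the single purified libraries shows this as a band along the diagonal with a wide spread.

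**Figure D1:**
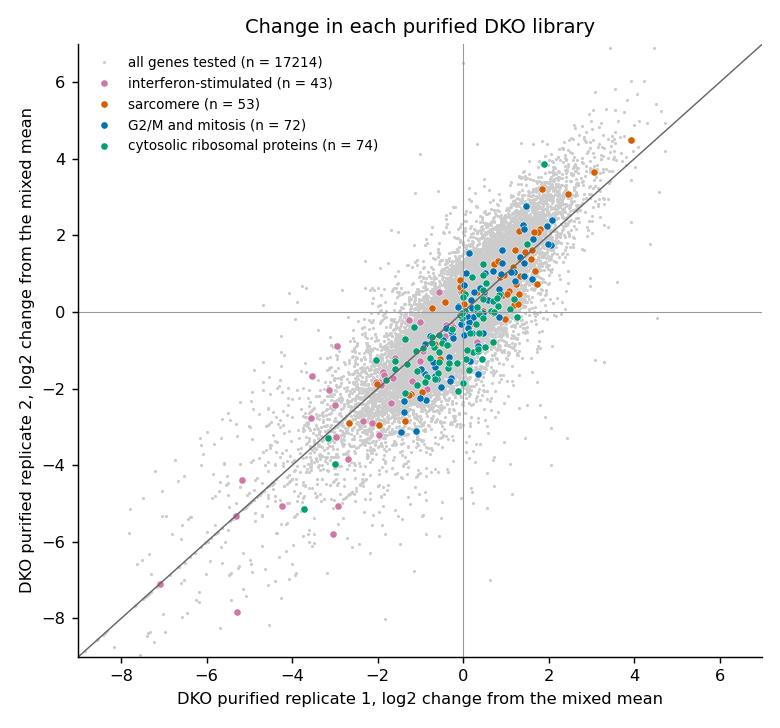
Log2 change of each gene in purified 1 (horizontal) and purified 2 (vertical) from the mean of the mixed libraries, each point 1 gene, with the diagonal marking equal change and 4 gene lists in colour. Interferon-stimulated genes lie toward the lower left, 27 of 43 at least 2-fold lower in both libraries, and 31 genes lie outside the plotted range of -9 to 7.

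Changes followed the base composition of the genes. Over 15923 polyadenylated genes with an annotated transcript, GC content and the change correlated with a Spearman rho of 0.65 across genes in DKO and 0.43 in WT, and with -0.48 for purified 1 minus purified 2; genes share their libraries and are not independent replicates. Of 10 bins of genes ordered by GC content, in the lowest (median 39.8%) the median change was -1.44, at -1.10 in purified 1, -1.76 in purified 2 and -0.86 in WT, with 9 genes rising and 945 falling of 1593. In the highest bin (median 59.8%) the median change was 1.06, at 0.80, 1.36 and 0.67, with 760 rising and 37 falling. Exonic length was related more weakly, with a rho of -0.16 and a median of -0.66 in the longest of 10 bins. Each library was therefore also centred on its median within 10 bins of GC content, which left 2440 rises (14.2%) and 2505 falls (14.6%), of which 1665 rises (9.67%) and 1880 falls (10.9%) passed in the same direction without centring. Of the 142 genes below that passed, 113 passed in the same direction after GC centring, and those that did not are named as such where they appear. The part of GC content in any single change was not tested.

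**Figure D2:**
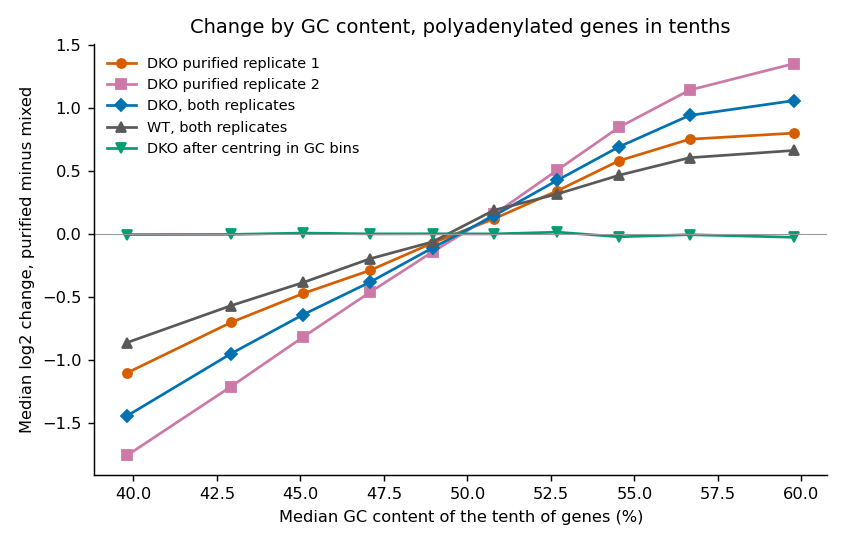
Median log2 change from mixed to purified (vertical) in 10 bins of polyadenylated genes ordered by GC content (horizontal, median per cent of the bin), for purified 1, purified 2, both DKO libraries, WT and DKO after GC centring. The lines of purified 1, purified 2 and WT climb from -1.10, -1.76 and -0.86 in the lowest bin to 0.80, 1.36 and 0.67 in the highest, and the centred line stays near 0 by construction.

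Sarcomere genes moved in both directions, with Acta1, Xirp1, Actn2, Obsl1 and Myom3 among the rises and Ttn among the falls. Of 53 tested members 21 rose and 8 fell (39.6% and 15.1%), with a median of 0.74, at 0.92 in purified 1 and 0.53 in purified 2. After GC centring 13 rose and 4 fell, with a median of 0.27. Skeletal alpha-actin, Acta1, went from 3176 and 3536 normalised reads to 51109 and 75326, a log2 change of 4.21 ± 0.25 (SE, adjusted p = 0.00485) and of 3.26 after GC centring. Xirp1, an actin-binding repeat protein of growing myofibrils, went from 478 and 521 to 4181 and 6320, by 3.36 (adjusted p = 0.00555). For both genes the purified libraries lay far above the mixed ones and did not overlap them, but 13545 of all 17214 genes (78.7%) had no overlap either.

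Alpha-actinin 2 (Actn2), the Z-disc crosslinker of actin, went from 1622 and 1518 to 5490 and 7037, by 1.99 ± 0.20 (adjusted p = 0.00747). Obsl1, an obscurin-like linker, rose by 2.77 (adjusted p = 0.00712), the M-band protein gene Myom3 by 1.92 (adjusted p = 0.00762), and beta-tropomyosin, Tpm2, by 1.71 (adjusted p = 0.0184). Embryonic myosin heavy chain, Myh3, the main myosin of newly formed myotubes, stood at 20397 and 21204 mixed and at 48862 and 34514 purified, a rise of 0.98 ± 0.23 (adjusted p = 0.0318) that did not pass after GC centring (0.27, adjusted p = 0.522). Titin (Ttn), the giant spring protein that spans the sarcomere, went the other way, from 87456 and 101809 to 14784 and 12650, a fall of -2.79 ± 0.19 (adjusted p = 0.0055; -2.40 after GC centring). Reads of Ttn may be shared with the overlapping gene Gm13938. The plot of 16 genes by library shows these values with those of WT.

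**Figure D3:**
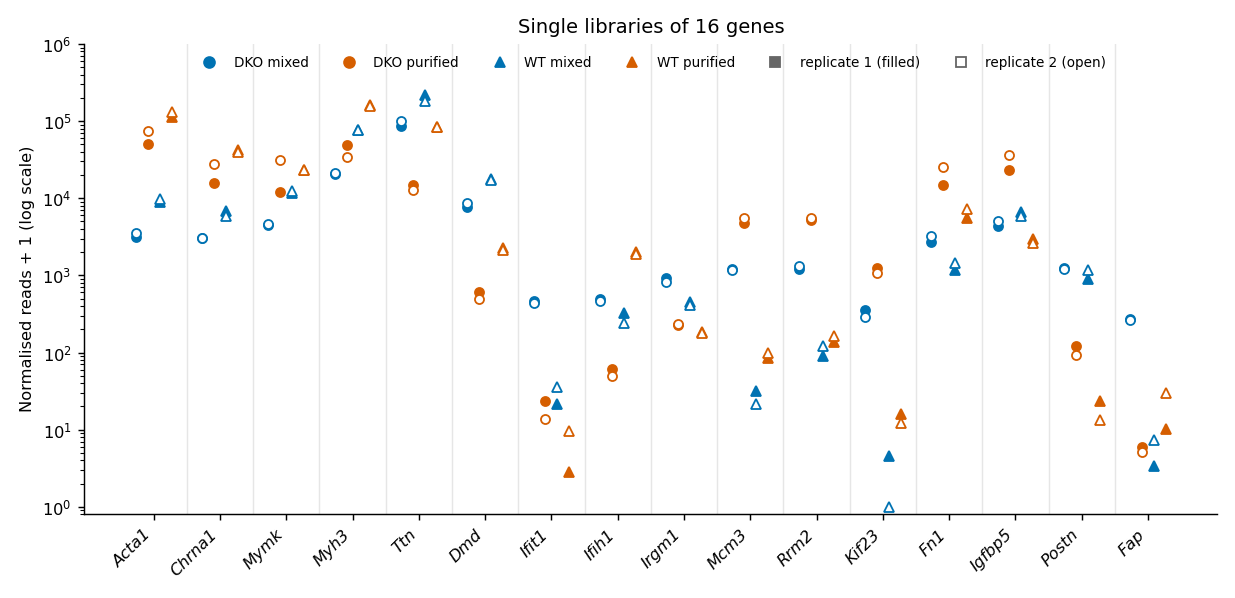
Normalised reads + 1 on a log scale for 16 named genes, each point 1 library, for mixed and purified DKO and WT. Acta1, Chrna1 and Fn1 stand higher in both purified DKO libraries than in the mixed ones, Ttn, Dmd, Ifit1, Postn and Fap lower, and Ifih1 falls in DKO from 492 and 471 to 60.2 and 49.2 while the WT libraries go from 321 and 241 to 2026 and 1912.

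The promoters of Acta1 and Chrna1 are shown because both genes rose by over 2 log2 units and both hold the E-box that MyoD and myogenin prefer, CAGCTG, which reads the same on both strands. The 250 bases before the start site are given 5′ to 3′ on the gene's strand in RefSeq, build GRCm38.p6, with the motif in capitals. Acta1 lies at chr8:123894776-123895025 (minus strand), with the site starting 221 bases before the start, and Chrna1 at chr2:73580339-73580588 (minus strand), with sites at 92 and 44 bases.
Acta1: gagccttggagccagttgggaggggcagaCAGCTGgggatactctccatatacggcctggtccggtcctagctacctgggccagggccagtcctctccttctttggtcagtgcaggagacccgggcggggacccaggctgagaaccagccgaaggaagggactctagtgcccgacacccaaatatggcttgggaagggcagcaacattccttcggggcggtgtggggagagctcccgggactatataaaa
Chrna1: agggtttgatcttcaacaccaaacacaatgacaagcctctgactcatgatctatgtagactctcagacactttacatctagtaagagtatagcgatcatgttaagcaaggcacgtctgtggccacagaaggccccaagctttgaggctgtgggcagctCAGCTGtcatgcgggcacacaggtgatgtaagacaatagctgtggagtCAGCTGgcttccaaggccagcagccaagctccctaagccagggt
Windows of 300 bases, from 250 before to 50 after the start, could be read for 11620 tested genes, and 18.9% of them held the E-box. The share was 16 of 40 sarcomere genes (40.0%), 7 of the 15 that rose, 3 of the 6 that fell and 6 of the 19 that did not pass. A match describes the letters in this window and not the binding of a factor.

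Regulators of the muscle programme split. Of 20 tested myogenic factors and MEF2 genes 5 rose and 6 fell, with a median of 0.11. Myod1 stood at 2502 and 2611 mixed and 7443 and 21379 purified, a rise of 2.30 ± 0.53 (adjusted p = 0.0291) that did not pass after GC centring (1.22, adjusted p = 0.0577); reads from the adenovirus insert cannot be separated from those of the cell's own gene. Myogenin (Myog), the factor that commits myoblasts to terminal differentiation, went from 13308 and 12735 to 18646 and 23213, by 0.68 ± 0.19 (adjusted p = 0.0482). After GC centring the change in Myog was -0.04 (adjusted p = 0.853). Before centring the purified libraries were above the mixed ones for both factors, but 13545 of all 17214 genes (78.7%) had no overlap either. In Myod1 purified 2 was the higher by far.

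Tead4, a muscle-enriched partner of the Hippo pathway's coactivators, rose from 997 and 979 to 2877 and 3593 (1.70, adjusted p = 0.00856). Falls were found for Hdac9, a class II histone deacetylase that represses MEF2 (-2.19, adjusted p = 0.00593), for Tcf12, an E-protein partner of MyoD (-1.53, adjusted p = 0.00851), and for Six4, a homeodomain activator of early muscle genes (-1.39, adjusted p = 0.00941; adjusted p = 0.0551 after GC centring). Mef2c, a MADS-box activator of sarcomere genes, went from 4603 and 4824 to 1664 and 1178, by -1.75 (adjusted p = 0.0104), and by -0.31 after GC centring (adjusted p = 0.155). Myostatin (Mstn), a secreted inhibitor of muscle growth, stood in DKO at 28.9 and 30.4 mixed and 0 and 2.09 purified. Those purified values rest on 2 reads, and the mixed level was 23.4 times the purified one, with a 95% counting interval of 6.35 to 195. The Mstn call (adjusted p = 0.0155) was lost after GC centring (adjusted p = 0.0798).

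Among 29 genes of satellite cells, myoblasts and inhibitors of bHLH factors, 11 rose and 7 fell, and 11 and 4 did after GC centring. Notch1, a receptor that keeps myoblasts undifferentiated, went from 1590 and 1689 to 7019 and 12128, by 2.49 (adjusted p = 0.00947); it shares exons with 0610009E02Rik and Gm13568. Id3, a dominant-negative partner of E-proteins, rose from 1024 and 965 to 2750 and 2163 (1.29, adjusted p = 0.013; 0.35 and adjusted p = 0.395 after GC centring). Hes6, a bHLH gene that favours muscle differentiation, rose from 8135 and 8040 to 15851 and 18203 (1.07, adjusted p = 0.0139), and stood at -0.02 after GC centring (adjusted p = 0.954).

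Genes of myoblast fusion moved in both directions. Of 29 members 10 rose and 7 fell, with a median of 0.26, but 3 and 4 after GC centring. Myomaker (Mymk), a membrane protein needed for fusion, went from 4504 and 4597 to 12128 and 30894, by 2.09 ± 0.47 (adjusted p = 0.0284; 1.37 and adjusted p = 0.0542 after GC centring). Myomixer (Mymx), its micropeptide partner, went from 2166 and 1994 to 5993 and 5384, by 1.45 ± 0.17 (adjusted p = 0.0088; 0.50 and adjusted p = 0.165 after GC centring). M-cadherin (Cdh15), which joins myoblasts, went from 1492 and 1442 to 4913 and 6607, by 1.96 ± 0.21 (adjusted p = 0.00814; 0.87 and adjusted p = 0.0164). All 3 were above the mixed libraries in each purified library. The 2 groups did not overlap in 24 of the 29 members, against 78.7% of all genes. Falls were found for Jam2, a junctional adhesion molecule (-1.34, adjusted p = 0.0101), Adam12, a metalloprotease (-1.30, adjusted p = 0.0119), and beta-1 integrin, Itgb1, at 20606 and 20418 mixed and 11964 and 6926 purified (-1.17, adjusted p = 0.0393; adjusted p = 0.12 after GC centring).

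At the neuromuscular junction, subunits of the fetal acetylcholine receptor rose while the kinase MuSK fell. Of 18 members 8 rose and 4 fell, with a median of 0.73, at 0.35 in purified 1 and 1.12 in purified 2; after GC centring 6 rose and 2 fell and the median was -0.11. The receptor's alpha-1 subunit, Chrna1, went from 3083 and 3063 to 15960 and 28087, by 2.78 ± 0.31 (adjusted p = 0.0086) and by 3.17 after GC centring. Its fetal gamma subunit Chrng rose from 4318 and 4352 to 10496 and 12760 (1.42, adjusted p = 0.0101), and its delta subunit Chrnd from 2268 and 2362 to 5048 and 6968 (1.36, adjusted p = 0.0142). Agrin (Agrn), the signal that clusters the receptor, rose by 1.72 (adjusted p = 0.0124) and its receptor Lrp4 by 1.58 (adjusted p = 0.0121). MuSK (Musk), the receptor tyrosine kinase that Lrp4 activates, went from 575 and 604 to 71.6 and 71.2, by -3.03 ± 0.20 (adjusted p = 0.00509). Utrophin (Utrn), the dystrophin relative found at the junction, fell by 0.91 (adjusted p = 0.017), and did not pass after GC centring (adjusted p = 0.068).

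In the dystrophin complex and costamere, which tie the sarcomere to the membrane, 5 of 32 members rose and 7 fell; 10 rose and 8 fell after GC centring. Filamin C (Flnc), a muscle actin crosslinker, went from 1275 and 1375 to 17267 and 20545, by 3.83 ± 0.18 (adjusted p = 0.00445). Dystrophin (Dmd) went from 7660 and 8576 to 611 and 496, by -3.88 ± 0.19 (adjusted p = 0.00445), and by -2.44 after GC centring. These 2 genes changed by similar amounts in opposite directions in both purified libraries. Delta-sarcoglycan (Sgcd) fell from 4265 and 4451 to 1127 and 1018 (-2.02, adjusted p = 0.00594; adjusted p = 0.099 after GC centring), and Pdlim5, a Z-disc adaptor, from 2737 and 2874 to 568 and 624 (-2.24, adjusted p = 0.00553).

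Calcium handling and excitation-contraction coupling had 13 rises and 7 falls among 33 members, with a median of 0.45; after GC centring 7 rose and 8 fell. Jsrp1, a junctional sarcoplasmic reticulum protein, rose by 1.33 (adjusted p = 0.00983), and by 0.24 after GC centring (adjusted p = 0.413). Kcnj2, the inward rectifier that hyperpolarises fusing myoblasts, fell from 1885 and 1867 to 374 and 320 (-2.44, adjusted p = 0.0055), and Cacna2d1, an auxiliary calcium channel subunit, from 7784 and 8586 to 1912 and 1255 (-2.40, adjusted p = 0.00814).

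Energy genes of muscle leaned upward without centring. Of 34 members for phosphagen and glycogen metabolism 10 rose and 4 fell, with a median of 0.32, but 3 and 2 after GC centring. Muscle creatine kinase (Ckm) went from 1213 and 1167 to 2306 and 2298, by 0.95 ± 0.16 (adjusted p = 0.0152; 0.24 and adjusted p = 0.311 after GC centring), and shares exons with A930016O22Rik. Pgam2, the muscle phosphoglycerate mutase, rose from 478 and 495 to 1927 and 2137 (2.06, adjusted p = 0.00594). Adenylate kinase 1 (Ak1) rose by 1.08 (adjusted p = 0.0437; adjusted p = 0.238 after GC centring), while Ppp1r3a, the muscle subunit that targets protein phosphatase 1 to glycogen, fell from 1781 and 1888 to 198 and 129 (-3.51, adjusted p = 0.00563). In glycolysis 5 of 24 genes rose and 3 fell, but 4 and 4 after GC centring. Hexokinase 1 (Hk1, sharing exons with Hk1os) went from 799 and 907 to 4417 and 5184 (2.49, adjusted p = 0.0055).

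Nuclear genes of oxidative phosphorylation, the respiratory chain and ATP synthase, had 25 rises and 5 falls among 76 (32.9% and 6.58%). Their median was 0.25, and it differed between the purified libraries, at 0.57 in purified 1 and -0.07 in purified 2. Of the 76 members 19 were at least 2-fold higher in purified 1 than in purified 2 and none the other way. Over all genes these shares were 10.7% and 9.90%. After GC centring 13 rose and 4 fell. Ndufb10, a complex I subunit, went from 398 and 465 to 1379 and 1259 (1.61, adjusted p = 0.0088), and Atp5b, the beta subunit of ATP synthase, from 7808 and 7743 to 15353 and 18662 (1.12, adjusted p = 0.0145). Ndufv1, another complex I subunit, rose by 1.40 (adjusted p = 0.00887; adjusted p = 0.115 after GC centring). Of 34 genes of the citric acid cycle and fatty acid oxidation 8 rose and 3 fell, among them malate dehydrogenase, Mdh2, at 1137 and 1177 mixed and 4054 and 3388 purified (1.68, adjusted p = 0.00805), and Suclg2, a succinyl-CoA ligase subunit, at 268 and 324 mixed and 29.3 and 44.0 purified (-3.00, adjusted p = 0.00762).

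Mitochondrial ribosomal protein genes mostly did not pass: of 75 members 10 rose and 2 fell. Mrpl2 rose from 199 and 181 to 590.3 and 818 (1.87, adjusted p = 0.0103) and Mrpl1 fell from 1287 and 1324 to 465 and 334 (-1.73, adjusted p = 0.0106). Among 25 regulators of mitochondrial number and shape 5 rose and 6 fell, and 2 and 1 after GC centring. Ppargc1a, the coactivator PGC-1 alpha that drives mitochondrial genes, went from 669 and 614 to 171 and 205, by -1.77 ± 0.20 (adjusted p = 0.0088), and by -0.82 after GC centring (adjusted p = 0.0891). Esrrg, an orphan nuclear receptor that partners it, fell from 841 and 840 to 226 and 296 (-1.70, adjusted p = 0.0101; adjusted p = 0.133 after GC centring). Polrmt, the mitochondrial RNA polymerase, rose from 215 and 250 to 725 and 1159 (1.98, adjusted p = 0.0124), and Tfb2m, its initiation factor, fell from 156 and 155 to 53.7 and 38.7 (-1.75, adjusted p = 0.0137; adjusted p = 0.0524 after GC centring). Of 13 mitochondrially encoded messengers 7 reached the mean of 10 and were tested, and of these 2 rose and 1 fell. The gene mt-Nd4, which shares exons with mt-Nd4l, went from 7848 and 7117 to 22590 and 19648 (1.50, adjusted p = 0.0091). The other rise was mt-Cytb, from 17538 and 16618 to 36737 and 66477 (1.53, adjusted p = 0.0251). These messengers are rich in A and T, and after GC centring their median was 1.94, with 5 of 7 rising.

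Genes of DNA replication moved in both directions in purified DKO myotubes. Of 75 G1/S targets of E2F 22 rose and 9 fell, with a median of 0.09, and after GC centring 22 rose and 3 fell, with a median of 0.36. Mcm3, a subunit of the replicative helicase, went from 1193 and 1180 to 4783 and 5469, by 2.11 ± 0.17 (adjusted p = 0.00593), against 31.1 and 20.3 mixed and 83.7 and 98.1 purified in WT. Rrm2, the regulated subunit of ribonucleotide reductase, went from 1206 and 1335 to 5163 and 5526, by 2.07 ± 0.17 (adjusted p = 0.00593), against 88.5 and 122 and 138 and 164 in WT. In both genotypes the order was the same, and all DKO libraries lay above all WT libraries for these genes. Pold1, the catalytic subunit of DNA polymerase delta, rose by 1.89 (adjusted p = 0.00819) and Mcm2, another helicase subunit, by 0.89 (adjusted p = 0.0174). Rrm1, the large subunit of the reductase, stood at 10044 and 9792 mixed and 10208 and 7180 purified (-0.21, adjusted p = 0.483), with 0.74 after GC centring (adjusted p = 0.0228). The E2F motif GGCGGGAA was searched on both strands in the 300-base windows from 250 bases before to 50 after the start. It was found in 12 of 61 G1/S genes with a window (19.7%), against 4.46% of all 11620. The motif was in 4 of the 18 that rose (22.2%), 2 of the 7 that fell (28.6%) and 6 of the 36 that did not pass (16.7%).

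Of 72 mitotic genes 20 rose and 10 fell, with a median of 0.03, and 24 rose and 2 fell after GC centring, with a median of 0.39. Kif23, a kinesin of the central spindle, went from 352 and 288 to 1252 and 1088, by 1.87 ± 0.21 (adjusted p = 0.00842), against at most 14.9 in any WT library. Incenp, the scaffold of the chromosomal passenger complex, rose from 516 and 500 to 2111 and 1703 (1.90, adjusted p = 0.00762), and Kif18b, a microtubule-depolymerising kinesin, from 665 and 655 to 2043 and 2478 (1.77, adjusted p = 0.00801). Smc4, a condensin subunit, stood at 10246 and 10425 mixed and at 5641 and 2114 purified (-1.58, adjusted p = 0.0602), a case in which purified 2 was well below purified 1. In all, 14 of the 72 mitotic genes were at least 2-fold higher in purified 1 than in purified 2 and 2 the other way. The shares over all genes were 10.7% and 9.90%.

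Among 33 p53 targets and inhibitors of the cell cycle 7 rose and 8 fell. Cdkn2a, which encodes the inhibitors p16INK4a and p19ARF, went from 1548 and 1494 to 3109 and 2811, by 0.96 (adjusted p = 0.016), and stood at -0.13 after GC centring (adjusted p = 0.737). Gadd45g, a growth arrest gene, rose from 239.9 and 241 to 959 and 1278 (2.20, adjusted p = 0.0075), and Mdm4, an inhibitor of p53, fell from 3110 and 3160 to 549.7 and 512 (-2.56, adjusted p = 0.00502).

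The KDM5 family, pocket proteins and E2F factors leaned downward, with 1 rise and 10 falls among 20 and a median of -0.89, but 0 and 3 after GC centring, with a median of -0.31. Kdm5b, a demethylase related to Kdm5a, went from 835 and 837 to 351 and 302, by -1.36 ± 0.19 (adjusted p = 0.0112). Transcripts of the targeted genes fell too, Kdm5a by 0.95 (adjusted p = 0.0248) and Rb1 by 1.30 (adjusted p = 0.0102), and after GC centring they stood at 0.00 (adjusted p = 0.99) and 0.14 (adjusted p = 0.632). Lin52, a subunit of the DREAM and MuvB complexes, fell from 178 and 186 to 17.9 and 24.1 (-3.07, adjusted p = 0.00677). Tfdp2, a dimerisation partner of E2F, fell by 1.08 (adjusted p = 0.0136; adjusted p = 0.109 after GC centring). Ccnd3, cyclin D3, the cyclin raised in differentiating muscle, rose from 2034 and 1895 to 4048 and 5713 (1.29, adjusted p = 0.017; adjusted p = 0.117 after GC centring), and shares exons with Bysl.

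Interferon-stimulated genes fell as a group in purified DKO myotubes. Interferons signal through STAT and IRF factors that bind a repeated GAAA element and switch on antiviral genes, and cells given adenovirus can respond through this pathway. Of 43 tested members none rose and 28 fell (65.1%, against 21.3% of all genes), with a median of -1.74, at -1.84 in purified 1, -1.72 in purified 2 and -0.30 in WT. After GC centring none rose and 32 fell, with a median of -1.64, and 25 fell both ways; with the 2 members that had no purified read set at their bound the median was the same. Iigp1, an interferon-inducible GTPase that is not in the list and is one of the 10 largest falls, stood at 171 and 145 mixed and had no read in either purified library, so it was at least 81.7-fold lower with 3 reads over the group as the floor (adjusted p = 0.00445). Ifi44 stood at 148 and 123 mixed and 0 and 0 purified, at least 70.2-fold lower (adjusted p = 0.00463). Ifit3, of the family of tetratricopeptide proteins that bind viral RNA, stood at 38.4 and 39.1 mixed and 0 and 0 purified, at least 20.3-fold lower (adjusted p = 0.00635). For these 3 genes no purified DKO read was left.

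Oasl2, an oligoadenylate synthetase-like protein, stood at 246 and 211 mixed and at 4.88 and 0 purified, which rests on 3 reads and gives a mixed level 118 times the purified one (95% counting interval 40.3 to 574, adjusted p = 0.0113). Ifit1 went from 469 and 432 to 22.8 and 12.6, by -4.65 ± 0.35 (adjusted p = 0.00555). Ifih1, the cytoplasmic sensor of double-stranded RNA also called MDA5, went from 492 and 471 to 60.2 and 49.2, by -3.12 ± 0.22 (adjusted p = 0.0055). Irgm1, a GTPase of cell-autonomous defence, went from 911 and 828 to 228 and 232, by -1.91 ± 0.18 (adjusted p = 0.00697). Not all members moved: the ubiquitin ligase gene Trim25 stood at 944 and 921 mixed and 795 and 706 purified (-0.31, adjusted p = 0.203), and B2m, the light chain of class I histocompatibility molecules, at 3773 and 3465 mixed and 2449 and 5210 purified (-0.02, adjusted p = 0.974).

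The promoters of Ifit3, Ifit1 and Irgm1 are shown because these genes fell and hold the interferon response element, here GAAA, any 2 bases and GAAA again, searched on both strands. They are the 250 bases before the start site in RefSeq, build GRCm38.p6, 5′ to 3′ on the gene's strand, with each match in capitals. Ifit3 lies at chr19:34583279-34583528 (plus strand; matches at 156 and 122 bases before the start), Ifit1 at chr19:34640639-34640888 (plus strand; 104 and 85 bases) and Irgm1 at chr11:48871421-48871670 (minus strand; overlapping matches at 30 and 24 bases).
Ifit3: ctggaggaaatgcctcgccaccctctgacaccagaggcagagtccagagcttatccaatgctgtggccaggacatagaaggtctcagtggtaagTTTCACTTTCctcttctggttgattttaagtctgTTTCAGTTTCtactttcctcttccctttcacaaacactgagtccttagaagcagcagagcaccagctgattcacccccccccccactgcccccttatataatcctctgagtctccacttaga
Ifit1: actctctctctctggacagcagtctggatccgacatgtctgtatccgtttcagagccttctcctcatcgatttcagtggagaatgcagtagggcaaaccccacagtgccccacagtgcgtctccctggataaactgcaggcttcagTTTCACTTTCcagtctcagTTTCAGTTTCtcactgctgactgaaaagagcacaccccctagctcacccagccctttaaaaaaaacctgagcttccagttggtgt
Irgm1: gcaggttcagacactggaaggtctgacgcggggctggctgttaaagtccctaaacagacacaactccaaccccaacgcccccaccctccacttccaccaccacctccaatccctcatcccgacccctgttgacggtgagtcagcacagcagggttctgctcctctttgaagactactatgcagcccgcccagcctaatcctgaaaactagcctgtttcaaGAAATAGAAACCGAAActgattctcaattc
In the 300-base windows the element was found for 14 of 30 interferon-stimulated genes with a window (46.7%), against 406 of all 11620 (3.49%). It was present in 10 of the 18 that fell (55.6%) and in 4 of the 12 that did not pass (33.3%). Over all genes it was in 3% of those that rose and 4.30% of those that fell.

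Inflammatory cytokines and their regulators had 2 rises and 7 falls among 18 tested, with a median of -0.52. After GC centring 2 rose and 5 fell, with a median of -0.04. The full list held 30 genes, and the others were too low to be tested. A low gene could reach the required mean only through the group where it was higher, so these counts do not show the direction of the full list. Ccl2, the monocyte chemoattractant, stood at 82.6 and 71.1 mixed and at 1.63 and 2.09 purified, on 3 purified reads, with a mixed level 39.8 times the purified one (95% counting interval 13.5 to 194, adjusted p = 0.00586). Its relative Ccl7 stood at 69.4 and 48.2 mixed and at 0 and 1.05 purified, on 1 read, with a ratio of 90.0 (interval 16.01 to 3569, adjusted p = 0.00801). Both chemokines were thus close to absent from the purified libraries. Ptx3, a secreted pentraxin, fell from 106 and 85.3 to 24.4 and 22.0 (-1.99, adjusted p = 0.0119), and the chemokine gene Cxcl12 from 383 and 363 to 143 and 155 (-1.32, adjusted p = 0.0125). Relb, an NF-kappa-B subunit, rose from 189 and 158 to 491 and 594 (1.64, adjusted p = 0.0109; adjusted p = 0.0511 after GC centring). The lysosomal genes Cd68 and Laptm5, both best known from macrophages and lymphoid cells, rose from 103 and 99.2 to 416 and 1043 (2.69, adjusted p = 0.017) and from 75.2 and 96.0 to 390 and 646 (2.55, adjusted p = 0.0103), while the leukocyte gene Ptprc stood at 15.3 and 7.11 mixed and 1.63 and 0 purified.

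**Figure D4:**
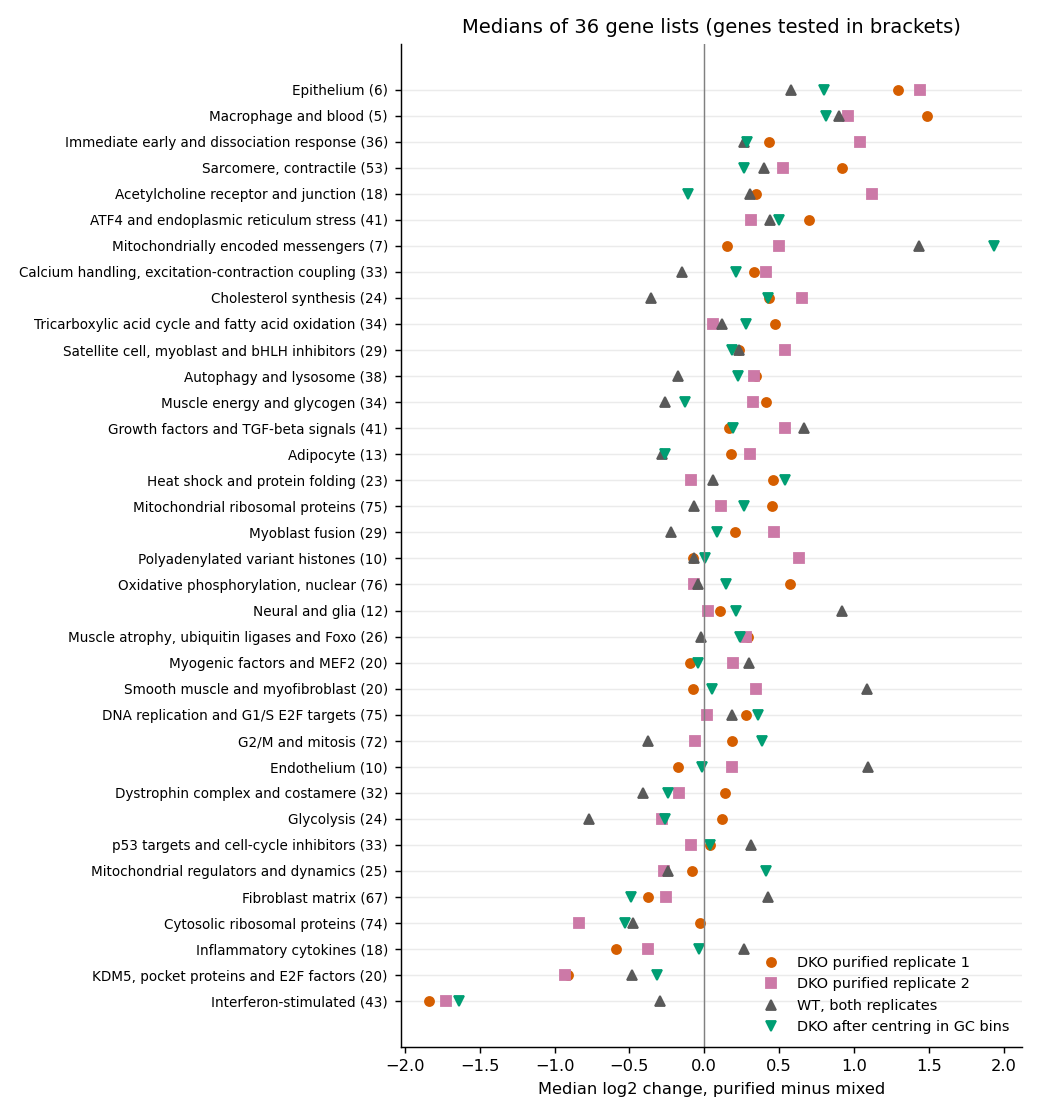
Median log2 change from mixed to purified of the tested members of 36 gene lists (vertical, number of genes in brackets), for purified 1 and purified 2 singly, WT and DKO after GC centring. The interferon-stimulated list lies lowest, at -1.84 in purified 1 and -1.72 in purified 2, and at -0.30 in WT.

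Fibroblast matrix genes did not move as a block. Of 67 members 13 rose and 21 fell (31.3%), with a median of -0.41 in DKO and 0.43 in WT; after GC centring 6 rose and 29 fell, with a median of -0.49. Collagen I alpha 1, Col1a1, went from 266 and 260.3 to 1228 and 1577, by 2.40 ± 0.21 (adjusted p = 0.00623). Fibronectin, Fn1, which shares exons with Apol7d, went from 2682 and 3202 to 14826 and 25295, by 2.72 ± 0.31 (adjusted p = 0.00873). Igfbp5, an insulin-like growth factor binding protein secreted by fibroblasts and by differentiating muscle, went from 4408 and 5052 to 23374 and 35954, by 2.62 ± 0.27 (adjusted p = 0.00769). These rises stand beside strong falls of other matrix genes. Periostin (Postn) went from 1259 and 1205 to 119 and 91.0, by -3.55 ± 0.22 (adjusted p = 0.0049). Fap, fibroblast activation protein, went from 272 and 259 to 4.88 and 4.19, by -5.59 ± 0.29 (adjusted p = 0.00445). Col6a3, a chain of collagen VI, fell from 930 and 964 to 161 and 168 (-2.52, adjusted p = 0.0055), and Sparc, a matrix glycoprotein, stood at 9186 and 8717 mixed and 7682 and 5863 purified (-0.41, adjusted p = 0.162). The part of remaining or recovering fibroblasts in these values was not tested.

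Lists for cell types that such a culture could hold in small numbers had few tested members: 3 of 13 adipocyte genes rose and 3 fell, 2 of 10 endothelial genes rose and 1 fell, 1 of 12 neural genes rose and 2 fell, and 4 of 6 epithelial genes and 2 of 5 blood-cell genes rose with no fall. In the same order the full lists held 20, 15, 18, 14 and 19 genes. A low gene could reach the mean of 10 over these libraries only through the group where it was higher. These counts therefore do not show the direction of the full lists. Smooth muscle and myofibroblast genes had 6 rises and 4 falls among 20, but 3 and 6 after GC centring. Smtn, smoothelin, which shares exons with Gm11946 and Gm11947, rose from 480 and 472 to 3477 and 6760 (3.34, adjusted p = 0.00802). Cald1, caldesmon, fell from 4096 and 4012 to 1857 and 1292 (-1.39, adjusted p = 0.0153), and Rgs5, a pericyte regulator of G-protein signalling, from 90.0 and 81.8 to 9.76 and 7.33 (-3.20, adjusted p = 0.00769).

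Growth factors and signals of the TGF-beta family had 14 rises and 8 falls among 41, but 8 and 7 after GC centring. Transforming growth factor beta 1, Tgfb1, went from 80.0 and 94.4 to 494 and 941, by 2.96 (adjusted p = 0.00974). Dlk1, a Notch-ligand-like imprinted gene of embryonic muscle, went from 98.4 and 79.8 to 994 and 1964, by 3.96 (adjusted p = 0.00721). Inhbb, an activin subunit, rose from 246 and 258 to 1442 and 1343 (2.46, adjusted p = 0.0055). Against these rises, Fstl1, a follistatin-like secreted protein, fell from 1876 and 1655 to 273 and 222 (-2.83, adjusted p = 0.0055).

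Immediate early genes, which respond within minutes to serum and to dissociation of tissue, had 13 rises and 4 falls among 36, with a median of 0.75, and 8 and 6 after GC centring. The libraries differed: the median was 0.43 in purified 1 and 1.04 in purified 2. Of the 36 members 12 were at least 2-fold higher in purified 2 than in purified 1, with none the other way. Over all genes these shares were 9.90% and 10.7%. Egr1, a zinc-finger factor induced by serum, stood at 318 and 268 mixed and 1529 and 4127 purified (3.10, adjusted p = 0.0147). Ier2 stood at 7.89 and 7.11 mixed and 99.2 and 222 purified (4.14, adjusted p = 0.00877), and Nr4a3, an orphan nuclear receptor, at 71.0 and 78.6 mixed and 312 and 628 purified (2.55, adjusted p = 0.0131). Other members of the list were lower: Dusp6, a phosphatase of ERK, went from 578 and 593 to 107 and 86.9 (-2.59, adjusted p = 0.00594) and Klf6 from 654 and 678 to 190.3 and 173 (-1.87, adjusted p = 0.0075).

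Lists of stress genes moved in both directions. In heat shock and folding 5 of 23 rose and 4 fell. Hsp90ab1, the constitutive HSP90, went from 2844 and 2728 to 14078 and 12551, by 2.25 ± 0.17 (adjusted p = 0.0055), and Bag3, the co-chaperone of filamin turnover, from 159 and 150.1 to 842 and 1987, by 3.06 (adjusted p = 0.0121). Dnajb5 rose by 2.67 (adjusted p = 0.00976), whereas Hsp90aa1, the inducible HSP90, fell by 1.34 (adjusted p = 0.0139; adjusted p = 0.304 after GC centring). Of 41 genes of the ATF4 and endoplasmic reticulum stress response 14 rose and 5 fell, with a median of 0.55, and 13 and 2 after GC centring; the cationic amino acid transporter gene Slc7a1 went from 1171 and 1186 to 4093 and 5555 (2.02, adjusted p = 0.00802) and the translation repressor gene Eif4ebp1 from 241 and 231 to 707 and 997 (1.83, adjusted p = 0.0105). Of 26 genes of muscle atrophy 8 rose and 5 fell, but 4 and 4 after GC centring. Metallothionein 1, Mt1, rose from 381 and 373 to 1543 and 1425 (1.97, adjusted p = 0.00624). Trim55, a sarcomeric ubiquitin ligase also called MuRF2, fell from 3318 and 3408 to 1394 and 1474 (-1.23, adjusted p = 0.0103).

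Of 38 autophagy and lysosome genes 15 rose and 7 fell, and 10 and 4 after GC centring. Progranulin, Grn, which shares exons with Fam171a2, rose from 285 and 389 to 2604 and 2627 (2.97, adjusted p = 0.0055). Cholesterol synthesis had 11 rises and 2 falls among 24 (45.8%), with a median of 0.44, and 6 and 0 after GC centring. Srebf2, the factor that drives the pathway, went from 1530 and 1722 to 5554 and 10780, by 2.25 (adjusted p = 0.0137). Mvd and Pmvk, enzymes of the mevalonate pathway, rose by 1.44 (adjusted p = 0.0131) and 1.63 (adjusted p = 0.0147), and neither passed after GC centring (adjusted p = 0.22 and 0.0554).

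Among 74 cytosolic ribosomal protein genes 2 rose and 15 fell (20.3%, against 21.3% of all genes), with a median of -0.51. That median was -0.03 in purified 1 and -0.84 in purified 2. Of the 74 members 19 were at least 2-fold higher in purified 1 than in purified 2 and 1 the other way. Over all genes these shares were 10.7% and 9.90%. Rpsa, a small-subunit protein gene, went from 1443 and 1510 to 111 and 40.8 (-4.43, adjusted p = 0.0087). It shares exons with Gm24044, and 36 of the 74 share exons with another gene; among the 38 that do not, none rose and 5 fell.

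The 10 largest rises and falls were taken among polyadenylated genes with at least 100 normalised reads in the higher group and no shared exons. Gamma-tubulin 1 (Tubg1), which nucleates microtubules, went from 51.0 and 68.0 to 1475 and 2260, by 4.93 ± 0.30 (adjusted p = 0.0049). Prr12, a proline-rich nuclear protein gene, rose by 4.87 (adjusted p = 0.00901), Ptpn23, an endosomal phosphatase relative, by 4.69 (adjusted p = 0.00979), and Fbxw5, an F-box protein gene, by 4.61 (adjusted p = 0.00603). Zmiz2, a coactivator, rose by 4.48 (adjusted p = 0.00876) and Runx3, a Runt-domain factor, by 4.44 (adjusted p = 0.00593). Polr2a, the largest subunit of RNA polymerase II, went from 614 and 611 to 7242 and 23778 (4.42, adjusted p = 0.0106) and Mbd6, a methyl-CpG-binding domain protein gene, from 98.4 and 123 to 938 and 5920 (4.41, adjusted p = 0.0226). In both, purified 2 was more than 2-fold above purified 1.

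The largest fall was in Cdk8, a kinase of the Mediator complex. Its values were 363692 and 352204 mixed and 1070 and 1083 purified, a change of -8.38 ± 0.16 (adjusted p = 0.000925), and 685146 and 611513 mixed and 2964 and 1990 purified in WT. Il1rapl1, a synaptic receptor-like gene, went from 39727 and 39542 to 236 and 111 (-7.93, adjusted p = 0.00445), Slc22a29, a transporter gene, from 7377 and 7803 to 47.2 and 64.9 (-7.07, adjusted p = 0.00258), and Camk1d, a calmodulin-dependent kinase gene, from 22344 and 23579 to 377 and 253 (-6.21, adjusted p = 0.00356). The WT change of these 4 genes was -8.06, -6.58, -6.06 and -5.54 in the same order, so the falls were seen in both genotypes. For scale, mt-Rnr2, a mitochondrial ribosomal RNA held apart below as not polyadenylated, changed by -8.33 in DKO and -7.98 in WT. Genes were held apart by name and annotated class only. Whether the mixed reads of these 4 genes came from their messengers or from RNA without a tail was not tested, so the falls cannot be read as changes of the messengers. Hoxd8, a homeobox gene of limb and trunk position, stood at 189 and 175 mixed and at 0 and 1.05 purified, on 1 read, with a ratio of 284 (95% counting interval 50.9 to 11238, adjusted p = 0.0055). Negr1, a neuronal adhesion gene, fell from 248 and 256 to 1.63 and 3.14 (-6.26, adjusted p = 0.00485) and Erbb4, a neuregulin receptor, from 694 and 789.7 to 14.6 and 10.5 (-5.79, adjusted p = 0.00445). Iigp1, Ifi44 and Oasl2 complete the 10 largest falls.

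The 2 purified libraries differed by 2-fold or more in 3548 genes, of which 1844 were higher in purified 1 (10.7%) and 1704 in purified 2 (9.90%). With n = 1 on each side there is no test. Naca, the nascent polypeptide-associated chaperone subunit, stood at 4654 in purified 1 and 21833 in purified 2, against 567 and 650.3 mixed (4.05, adjusted p = 0.0189). Ptms, parathymosin, stood at 6573 and 31423, against 2570 and 2344 mixed (2.55, adjusted p = 0.0548). Other genes lay far higher in purified 1. Ubb, a polyubiquitin gene, stood at 408 in purified 1 and 9.42 in purified 2, against 588 and 614 mixed (-3.20, adjusted p = 0.2). Hmgn5, a nucleosome-binding protein gene, stood at 444 and 20.9, against 60.0 and 44.2 mixed (0.91, adjusted p = 0.636), so purified 1 lay above and purified 2 below the mixed libraries. The purified WT libraries stood at 504 and 489 for Ubb and at 690 and 517 for Hmgn5, above both purified DKO libraries. Ratios were ranked over polyadenylated genes without clone names or shared exons, above a minimum level in the higher purified library. There the 8 genes with the largest ratio toward purified 1 were Ubb, Hmgn5, Atp5mpl, C1d, Skp1a, Chchd2, Vbp1 and Eif2s3x. Toward purified 2 they were Mbd6, Ptms, Kctd17, Naca, Prr13, Six5, Ubl7 and Irx5.

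The 194 genes held apart as not polyadenylated fell steeply, with a median of -4.68, or -4.13 with the 28 genes that had no purified read set at 3 reads over the group, at -4.21 in purified 1, -4.75 in purified 2 and -3.93 in WT. They held 15.5% and 14.0% of reads in the mixed libraries and 0.226% and 0.0973% in the purified ones. The mitochondrial large ribosomal RNA, mt-Rnr2, went from 2285470 and 2030590 to 15409 and 2903, by -8.33 ± 0.82 (adjusted p = 0.00739), and the small one, mt-Rnr1, from 65263 and 73174 to 2038 and 407 (-6.24, adjusted p = 0.00983). Rn7sk, the 7SK RNA that holds back transcription elongation, went from 50307 and 46234 to 27.6 and 0 (-13.14, adjusted p = 0.00948). Of 106 small nucleolar and Cajal body RNAs, guides of RNA modification, 95 fell and none rose, with a median of -5.06, or -4.86 with 21 genes at that bound; Gm25835 went from 6458 and 6440 to 19.5 and 1.05 (-9.96, adjusted p = 0.0086). Gm23935, annotated as a miRNA locus, went from 8293 and 10155 to 1.63 and 1.05, on 2 purified reads, with a ratio of 7347 (95% counting interval 2034 to 60670). MicroRNA loci as a class had 2 rises and 2 falls among 20, with a median of 0.15. Mir675, which lies in the first exon of the polyadenylated H19 transcript and shares its reads, stood at 2482 and 2376 mixed and 2682 and 6310 purified (0.76, adjusted p = 0.216).

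**Figure D5:**
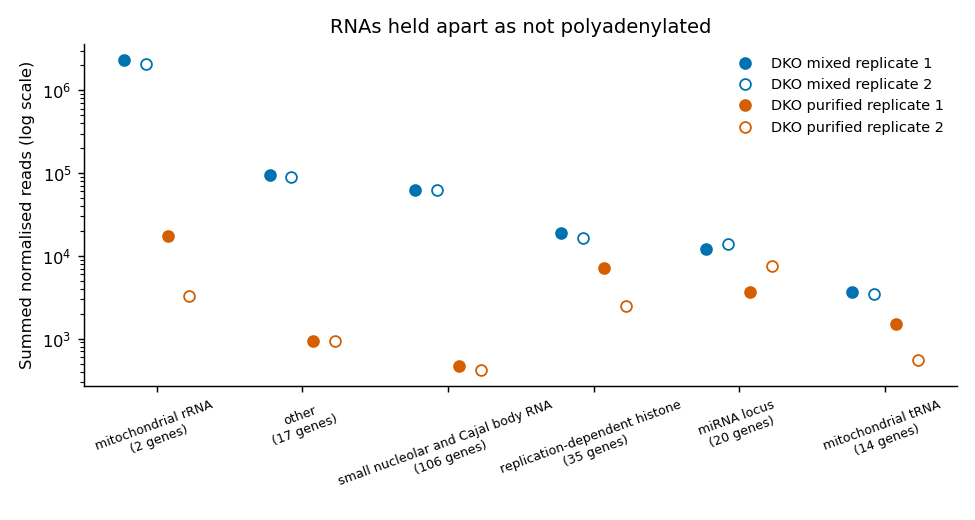
Summed normalised reads on a log scale for the classes of RNA held apart as not polyadenylated (horizontal, number of genes in brackets), in each DKO library. The mitochondrial ribosomal RNAs sum to 2350740 and 2103770 mixed and to 17446 and 3310 purified, and the replication-dependent histones to 18779 and 16471 against 7216 and 2464.

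Replication-dependent histone messengers normally end in a stem-loop in place of a poly(A) tail. Of 35 such genes 27 fell and none rose, with a median of -3.53, at -3.26 in purified 1, -3.95 in purified 2 and -1.63 in WT. The stem-loop was found in the annotated transcript of 25. It is shown for 4 genes with the paired stem in capitals and the loop in lower case, from the GENCODE transcripts (build GRCm38).
Hist1h4c: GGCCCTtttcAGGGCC
Hist1h2bk: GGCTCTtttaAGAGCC
Hist1h1d: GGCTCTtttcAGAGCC
Hist1h1c: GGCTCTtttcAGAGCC
Hist1h4c, a core histone H4 gene, stood at 294 and 237 mixed and at 3.25 and 3.14 purified (-5.98, adjusted p = 0.00445), and Hist1h2bk, a histone H2B gene, at 169.9 and 141 mixed and 11.4 and 13.6 purified (-3.53, adjusted p = 0.00594). The annotated transcripts of Hist1h1d and Hist1h1c, both linker histone genes, run on past the stem-loop and hold the polyadenylation signal AATAAA after it. Hist1h1d stood at 1654 and 1421 mixed and 281 and 98.4 purified (-3.20, adjusted p = 0.0151), and Hist1h1c at 4708 and 4017 mixed and 3163 and 1010 purified (-1.28, adjusted p = 0.134). Of the 8 genes with a stem-loop and AATAAA after it 4 fell, with a median of -1.94, and of the 17 with a stem-loop and no such signal 15 fell, with a median of -5.03. Of the 10 with no stem-loop found 8 fell, with a median of -4.935. Annotated transcripts ran past the stem-loop by 11 bases in Hist1h2ab and by 4884 in Hist1h1d, so the signal could not be looked for equally in all genes. Hist1h1a, another linker histone gene, stood at 1817 and 1557 mixed and 52.0 and 17.8 purified (-5.74, adjusted p = 0.00689), and Hist1h2bc at 1515 and 1370 mixed and 1517 and 303 purified (-1.08, adjusted p = 0.308), where purified 1 lay at the mixed level and purified 2 below it. Of 10 variant histone genes whose messengers do carry a tail, 3 rose and 1 fell, with a median of 0.26.

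WT myotubes were purified the same way, and the difference between the DKO change and the WT change was tested over 17261 genes in the 8 libraries of both genotypes. It was above 0 in 1335 genes (7.73%) and below 0 in 1551 (8.99%), and in 1625 (9.41%) and 1749 (10.1%) after GC centring. Both genotypes had the same 2 kinds of library, but the purified DKO libraries were the more variable and the relation of the change to GC content was stronger in DKO (rho 0.65) than in WT (0.43). The part of the protocol in the differences was not tested. The count of 2886 rests on single libraries: it was 613 and 675 without mixed DKO 1 and 2, 8964 and 6533 without purified DKO 1 and 2, and 910 to 1330 without any one WT library. Several of the muscle changes did not differ detectably: the difference was 0.51 ± 0.28 for Acta1 (adjusted p = 0.239), 0.09 ± 0.35 for Chrna1 (adjusted p = 0.887), 1.14 ± 0.52 for Mymk (adjusted p = 0.172), -0.25 ± 0.22 for Myog (adjusted p = 0.48) and -0.07 ± 0.25 for Myh3 (adjusted p = 0.88). The same held for Rb1 (-0.55, adjusted p = 0.0642), Mcm3 (0.30, adjusted p = 0.554), Ifit1 (-2.25, adjusted p = 0.117) and Cdk8 (-0.32, adjusted p = 0.454). A p that misses the threshold does not show that the genotypes acted alike.

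Other muscle genes differed. Ckm went from 1213 and 1167 to 2306 and 2298 in DKO and from 2827 and 2456 to 463 and 432 in WT, a difference of 3.51 ± 0.18 (adjusted p = 0.000375). Mymx rose in DKO and went from 779 and 738 to 642 and 444 in WT (1.96, adjusted p = 0.00408). Musk fell further in DKO than in WT, where it went from 4442 and 4721 to 2606 and 2259 (-2.11, adjusted p = 0.00145). Mstn, with 2 purified DKO reads, stood at 4785 and 7038 mixed and 15306 and 14435 purified in WT (-5.48, adjusted p = 0.00292), so WT libraries were far above every DKO library. Esrrg fell less in DKO than in WT, where it went from 191 and 183 to 5.58 and 4.97 (3.21, adjusted p = 0.00156). Over lists, the difference was above 0 in 13 and below 0 in 5 of 33 calcium-handling genes, in 13 and 3 of 34 energy genes, in 13 and 0 of 76 oxidative phosphorylation genes and in 10 and 11 of 53 sarcomere genes.

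Interferon genes differed toward a lower DKO change in 14 of 42 and toward a higher one in 1. Ifih1 fell in DKO and went from 321 and 241 to 2026 and 1912 in WT, a difference of -5.94 ± 0.28 (adjusted p = 0.000282). In WT, Ifi44 stood at 0 and 1.07 mixed and 1.86 and 2.48 purified (-8.23, adjusted p = 0.00177) and Ifit3 at 7.18 and 7.46 mixed and 11.2 and 9.94 purified (-5.78, adjusted p = 0.00219). Iigp1, which is not in the list, stood at 0 and 7.46 mixed and 0 and 0 purified in WT (-5.77, adjusted p = 0.0278). These differences thus set a DKO fall to no reads beside WT values of a few reads, and their fitted size depends on the pseudocount of 1. Matrix genes differed toward a lower DKO change in 21 of 67 and toward a higher one in 9. Fap stood at 2.39 and 6.40 mixed and 9.30 and 28.6 purified in WT (-7.40, adjusted p = 0.00241), and Igfbp5 fell from 6539 and 5874 to 3005 and 2650 in WT (3.75, adjusted p = 0.000993). Fstl1 stood at 840 and 1112 mixed and 1358 and 1249 purified in WT (-3.26, adjusted p = 0.00107), Ptx3 at 27.5 and 22.4 and 89.3 and 111 (-3.95, adjusted p = 0.00192), and Dusp6 at 781 and 898 and 1261 and 1246 (-3.17, adjusted p = 0.000696).

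Among regulators, Cdkn2a went from 995 and 1095 to 249 and 262 in WT, against a rise in DKO (2.98, adjusted p = 0.00046). Kdm5a differed by -1.68 (adjusted p = 0.0039) and Kdm5b, at 1878 and 2113 mixed and 2028 and 2042 purified in WT, by -1.39 (adjusted p = 0.00479). Rrm2 differed by 1.54 (adjusted p = 0.0106). Of the cholesterol synthesis genes, 12 of 24 differed above 0 and none below. Dlk1 rose less in DKO than in WT, where it went from 57.4 and 165 to 12629 and 11114 (-2.95, adjusted p = 0.0281).

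The largest differences outside these lists involved genes that purified WT libraries lost or gained, or, for Hoxd8, that purified DKO libraries lost. Several of these values lay near 0 in a group, and there the fitted size depends on the pseudocount of 1. Ip6k3, an inositol hexakisphosphate kinase of muscle, stood at 213 and 209 mixed and 101 and 170 purified in DKO and at 340 and 225 mixed and 0 and 3.73 purified in WT (6.31, adjusted p = 0.00644). Tbx4, a hindlimb T-box factor, stood at 38.9 and 38.3 and 26.0 and 40.8 in DKO and at 214 and 258 and 7.44 and 2.48 in WT (5.21, adjusted p = 0.00337). Hoxd13, a distal limb homeobox gene, fell in both, from 139 and 102 to 1.63 and 5.23 in DKO (-4.89, adjusted p = 0.00851) and from 913 and 866 to 0 and 1.24 in WT (difference 4.32, adjusted p = 0.0112). Hoxd8, lost from purified DKO, stood at 767 and 839 mixed and 417 and 294 purified in WT (-5.81, adjusted p = 0.0014). Both position genes were thus higher in mixed WT than in mixed DKO libraries. In the opposite direction, Vnn1, a pantetheinase gene, stood at 71.5 and 47.8 mixed and 34.2 and 16.7 purified in DKO and at 41.9 and 28.8 mixed and 828 and 947 purified in WT (-5.88, adjusted p = 0.00153). Atp2b2, a plasma membrane calcium pump gene, stood at 11.6 and 8.69 and 9.76 and 29.3 in DKO and at 2.39 and 0 and 195 and 163 in WT (-5.90, adjusted p = 0.00959).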

How the data were processed

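RNA was measured by sequencing in 8 libraries, mixed and purified, DKO and WT, n = 2 each. The authors deposited a signal per gene and library: a read count divided by a library size factor. The submitters' processing notes name TopHat 1.2.0 as aligner, the build mm9 and DESeq; the DESeq version, the read counter and the annotation are not given in the sources used here. Values divided by the smallest step of their column were whole reads (100% of values within 0.01 of a whole number), from which depth, 95% exact counting intervals, a floor of 3 reads and the count tests were computed; intervals cover counting error only, since PCR copies were not removed by molecular identifiers. GENCODE M21 (build GRCm38) supplied symbols, chromosomes, exon overlaps and transcript lengths, so gene coordinates in mm9 are not given, and promoters from RefSeq GRCm38.p6.

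Genes with a mean of at least 10 over the 4 DKO libraries were fitted with limma 3.58.1 (R 4.3.3; trend) on log2(value + 1), which understates changes of low genes. Tests were two-sided with Benjamini-Hochberg adjustment over all genes tested, and a gene rose or fell only where its adjusted p was under 0.05. The difference from WT is a contrast in a fit of 8 libraries. Purified 1 and 2 were also read singly, without a test. GC centring and 3 further settings for the purified pair were chosen after seeing the data. Other settings were pseudocounts, filters, TMM, centring, edgeR 4.0.16, DESeq2 1.42.0, a replicate block and leaving out each library. Replicate deviations of mixed and purified DKO libraries correlated at 0.03, so the replicate numbers were not taken to pair the samples.

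The members, the 36 gene lists and the tests were chosen with earlier results of these data known. Genes were named by rule: Rb1, Kdm5a, Kdm5b, Myod1, Myog, Myh3, Ckm and Ppargc1a; the 10 largest rises and falls; up to 6 members of each list with the smallest p and 3 with the highest mean; the 8 most abundant RNAs and 4 histones held apart; 8 genes with the largest ratio each way between the purified libraries; and 6 each way for the difference from WT. The rankings of changes, of purified ratios and of differences took polyadenylated genes without clone names or shared exons, above a minimum level. Marker genes of cell types and the histones Hist1h4c and Hist1h2bk, shown for their stem-loops, were named besides, the last 2 after their values were seen. Knockouts of Kdm5a or Rb1 alone were not used here. Some results that the rule names are not reported here.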

Additional observations from a re-analysis of the deposited data

Results flagged for a closer look

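For 27 of the genes named here the change from mixed to purified cultures differed between DKO and WT in limma's test of the difference, at an adjusted p under 0.05. Values are the log2 change in DKO minus that in WT. It was above 0 for Ip6k3 (6.31), Tbx4 (5.21), Mcpt8 (4.79), Hoxd13 (4.32), Deup1 (4.29), Igfbp5 (3.75), Ckm (3.51), Esrrg (3.21), Cdkn2a (2.98), Mymx (1.96) and Rrm2 (1.54). It was below 0 for Ifi44 (-8.23), Fap (-7.40), Ifih1 (-5.94), Atp2b2 (-5.90), Vnn1 (-5.88), Hoxd8 (-5.81), Ifit3 (-5.78), Iigp1 (-5.77), Mstn (-5.48), Ptx3 (-3.95), Fstl1 (-3.26), Dusp6 (-3.17), Dlk1 (-2.95), Musk (-2.11), Kdm5a (-1.68) and Kdm5b (-1.39). Mcpt8, a protease gene, stood at 32.6 and 47.8 mixed and 221 and 67.0 purified in DKO and at 221 and 189 mixed and 18.6 and 24.8 purified in WT (adjusted p = 0.00732). Its DKO level was far higher in purified 1 than in purified 2. Deup1, a gene of centriole amplification, stood at 106 and 87.3 mixed and 89.4 and 120.3 purified in DKO and at 25.1 and 11.7 mixed and 0 and 0 purified in WT (adjusted p = 0.00603). Where a group had few reads, the fitted size of a difference depends on the pseudocount of 1. No group had the 4 libraries that a test for a single outlying library needs.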

How the results depend on the processing

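The count of 6955 genes stayed within 1.5 times under every other setting except these: without genes that share exons 4371 passed of 11111 tested, and leaving out 1 library gave 29 to 13899, since without a mixed library the spread rests on the purified pair and the lone sample is assumed to vary like it. The count was 7357 with edgeR (3741 rises), 7705 with DESeq2, 10135 with the spread of all 12 libraries and 4945 after GC centring. For the difference from WT (2886), leaving out 1 library gave 613 (without mixed DKO 1) to 8964 (without purified DKO 1). With the replicate number as a block, a replicate block that the data do not support as a pairing, the counts were 7360 and 1774. Genes 2-fold apart between purified 1 and 2 numbered 2366 to 3569 over 4 other settings. Of 142 named genes that passed, 25 missed the threshold with the same sign and 4 with the sign changed, after GC centring; without a mixed DKO library 137 missed it, after length centring 8 (Myog at 0.47, adjusted p = 0.122, among them) and with the block 1 (Myog, adjusted p = 0.0778). Of the 27 differences from WT that passed, 5 were lost without mixed DKO 1 and 4 without mixed DKO 2. Sign changes after GC centring were Myog -0.0384, Hes6 -0.0157, Cdkn2a -0.13, Rb1 0.14, Rrm1 0.74, B2m 1.42, Mir675 -0.33 and the difference for Cdk8, 0.0022. B2m stood at 0.094 with edgeR and Rrm1 at 0.43 after length centring. Leaving out 1 library gave -0.466 to 0.0417 for Rrm1, -0.56 to 0.53 for B2m, -2.24 to 0.0744 for Hist1h2bc and -1.26 to 3.08 for Hmgn5, and for the difference -0.32 to 0.49 for Chrna1, -0.32 to 0.18 for Myh3 and -0.0016 to 0.59 for Mcm3. The cause was not tested.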
